A study of Saccharomyces cerevisiae with 12 samples.

Results

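The comparison of high with no MSS11 in budding yeast of the Σ1278b background set 1 array of cells overexpressing MSS11 from a multicopy plasmid against 1 array of cells whose MSS11 gene was deleted, out of 12 arrays in the series. These are the ends of the MSS11 range in the study, and every one of the 5498 probe sets listed for exactly 1 gene of this yeast was compared. The members described here are the 104 probe sets, for 103 genes, whose log2 signal differed by at least 1, which is 2-fold, with the brighter array above its background level. The background level of an array was the 95th percentile of its probe sets listed for a gene outside the annotated genes of this yeast, or for several genes. These were taken as probe sets for fission yeast, which was not present in these cultures, without a check of the species of each.

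Cells of all arrays grew in 5 ml of minimal medium with 2% glucose at 30 °C. According to the methods, amino acids were added by the needs of each strain, so the supplement may have differed between the strains compared. The sample labels give the harvest as early stationary phase, whereas the methods of the study describe an optical density of the exponential phase, so the growth phase is not settled. The high-MSS11 strain (2μ-MSS11) carried MSS11 in the 2μ URA3 vector YEplac195. The no-MSS11 strain (mss11Δ::LEU2) carried the same vector without insert, and LEU2 stood in place of MSS11. Both shared the ura3-52, trp1Δ::hisG, leu2Δ::hisG and his3Δ::hisG alleles. The deletion is 1 strain, so a change of its own cannot be told apart from the lack of MSS11. Neither side had a replicate array here, and no test of the difference was possible. The reference for error was the spread within 2 groups of 3 replicate arrays, 1 of cells overexpressing FLO11 and 1 of a first wild type of the same background, under the assumption that the lone arrays varied like these. Arrays used only beside the comparison were a second Σ1278b wild type with the empty vector, Σ1278b overexpressing FLO8, and the laboratory strain S288c as wild type and with extra MSS11. According to the study, S288c carries a nonsense mutation in FLO8, and the S288c parent in its strain list lacks LYS2. The backgrounds therefore differ in more than MSS11.

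Mss11 is a nuclear transcription factor that acts with Flo8, the effector of the cAMP-dependent kinase pathway, at the promoters of FLO11 and other adhesin genes. Flo11 is a glycosylated wall protein that lets cells of this background adhere, invade agar and grow as filaments, and the flocculins Flo1, Flo5, Flo9 and Flo10 bind cells to one another. FLO11 has one of the largest promoters of the yeast genome, at which the cAMP pathway, the filamentous growth MAP kinase pathway and glucose signalling meet. Many adhesin genes lie near chromosome ends and are silent in most laboratory cultures.

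Of the 104 probe sets, 64 were higher with high MSS11 (1.16% of all probe sets) and 40 were lower (0.728%), together 1.89%. The difference exceeded that of the same probe set in every one of the 6 pairs of replicate arrays for 102 of them (1.86%), the exceptions being PIR3 and COS8. Pairs of replicate arrays had 0 to 7 probe sets that differed 2-fold. The higher side also held the larger differences. Of the 64, 3 (HOP2, HXT15 and YAL064W) were below background on the deletion array and are less than 2-fold above that background, which leaves 61. At least 4-fold differences numbered 17 on the higher side, with FLO1 taken at its bound given below, and 3 on the lower side, and at least 8-fold differences 8 and 1. The median size of the log2 difference was 1.43 among the higher and 1.28 among the lower members, while over all probe sets the median difference was 0.01. Of all 5449 genes, 2864 were positive and 2585 negative, the background for the counts of signs below. Members just outside the limit included FLO9 at 0.98 and the lysine gene LYS4 at -0.99, and just inside it AAC3 at 1.02 and YRO2 at -1.04.

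**Figure D1:**
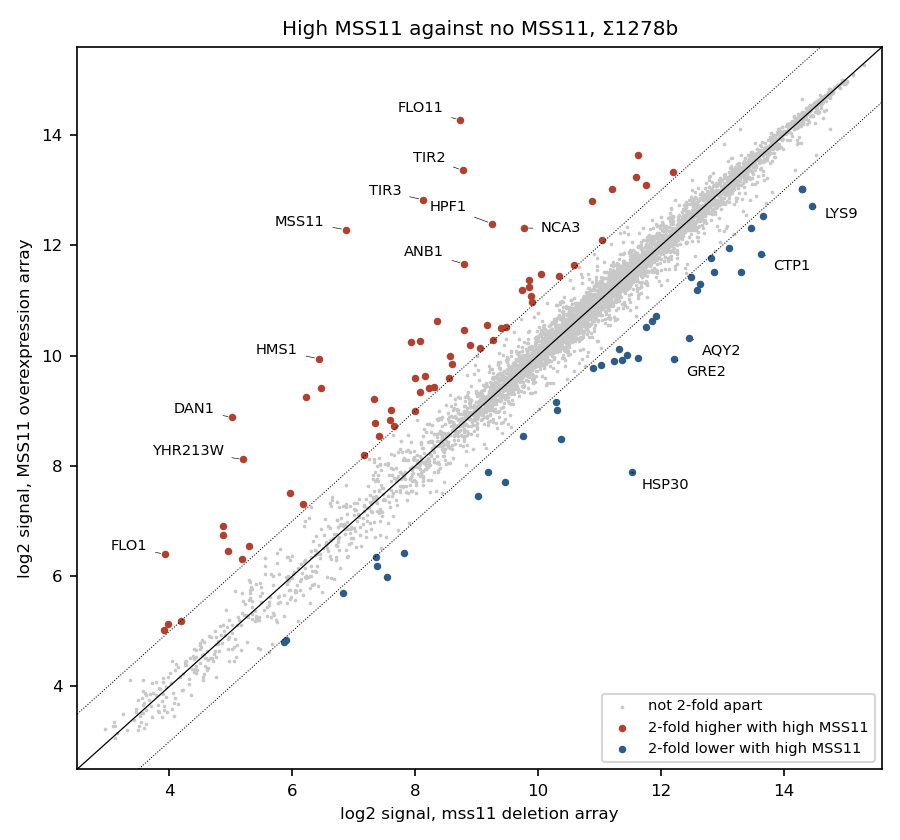
Log2 signal of 5498 probe sets on the mss11 deletion array (x axis) and the MSS11 overexpression array (y axis), 1 array each. The solid line marks equal signal and the dotted lines a 2-fold difference. FLO11, MSS11, TIR3 and TIR2 lie farthest above the lines and HSP30 farthest below.

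The targeted gene followed the labels. MSS11 had a log2 signal of 12.29 on the overexpression array, 8.22 on the second wild type array and 6.87 on the deletion array. The first wild type gave 8.30, 8.29 and 8.29. The high and no arrays thus differed by 5.42 (42.7-fold), against an SD of 0.20 for the difference of 2 replicate arrays. The deletion array still lay above its background level of 4.83, and the files do not give the part of the gene that the probes cover. The genes on either side of MSS11 were not 2-fold apart, INP2 at 0.28 and PAH1 at 0.19. LEU2, the marker at the deleted locus, read 14.30 on the deletion array against 13.02 on the overexpression array and 13.04 on the second wild type array. Its difference of -1.28 cannot be told apart from the marker itself, and its signal on arrays of a leu2Δ::hisG strain does not follow from the stated genotype. URA3, the plasmid marker, read 14.32 with high and 14.64 with no MSS11, where the first wild type averaged 8.64. That first set therefore differs from the second in its plasmid, and its level is given only as a reference.

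FLO11 showed the largest difference of all genes. Its signal was 14.27 with high MSS11, 11.64 in the second wild type and 8.73 with no MSS11, and 11.95, 12.19 and 12.28 in the first wild type. The log2 difference of 5.54 (46.5-fold) compares with an SD of 0.17 for a difference of replicate arrays. Every wild type array lay more than 2-fold away from both ends. A culture average cannot tell apart fewer expressing cells and less RNA per cell. FLO1, the main flocculin gene, was not above background on the deletion array, which read 3.92, nor on the second wild type array, which read 3.96. With high MSS11 it read 6.40, which is at least 2.97-fold higher than the background of the deletion array. FLO9 and FLO10 differed by 0.98 and 0.45 and were not 2-fold apart. The probes of FLO9 are shared with related genes and FLO5 had no probe set listed under its name, so the members of this family cannot be fully separated. All 4 measured flocculins were positive, with a median difference of 1.28 when FLO1 is taken at its bound, where that of all genes was 0.01.

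Fragments that resemble FLO1 lie near several chromosome ends, and 3 of 8 measured were higher. YHR213W, a FLO1-like pseudogene, read 8.12 with high MSS11, 5.04 in the second wild type and 5.20 with no MSS11, a difference of 2.92. YHR213W-A, the next gene along the chromosome, differed by 1.42. YAL064W differed by 1.16, but its deletion array was below background and the bound was only 1.24-fold. Among these genes only the first pair of neighbours therefore carried a measured 2-fold difference.

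The TIR and DAN genes encode serine- and alanine-rich mannoproteins of the cell wall that are known from cold and oxygen-poor cultures. Of 9 measured, 5 were higher and none was lower, with a median difference of 1.24. TIR3 read 12.83 with high MSS11, 9.49 in the second wild type and 8.13 with no MSS11, and 9.16 to 9.62 in the first wild type. Its difference was 4.71 (26.1-fold) with a replicate SD of 0.26. TIR2 read 13.36 at the high end and 8.81 and 8.77 on the second wild type and deletion arrays, which were alike within the replicate SD of 0.14. DAN1 followed the same pattern at a lower signal, with 8.88 on the high array against 4.92 and 5.02. The last 2 lay just above the background levels of their arrays, 4.88 and 4.83, so a difference between them might not show. TIR4, the neighbour of TIR2, read 10.26, 7.97 and 8.09 in the same order, and TIR1 read 9.84, 8.67 and 8.60. TIR3 was thus the only one of these 5 genes with a 2-fold step on both sides of the second wild type. TIP1, already at 13.29 without MSS11, differed by 0.83, and DAN4 by -0.28. None of the 13 measured seripauperins, a subtelomeric family of related small proteins, was 2-fold apart, and their median was 0.12.

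Among 23 other structural wall proteins 3 were higher. HPF1, a mannoprotein known in wine for reducing protein haze, had 12.40 with high MSS11, 9.63 in the second wild type and 9.25 without MSS11, a difference of 3.15. The first wild type, however, read 11.48 to 11.88 for HPF1, so the 2 wild types placed it near opposite ends of the range. WSC4, a membrane protein of the stress-sensor family, differed by 1.25. The difference of PIR3, a wall protein with internal repeats, was 1.11 and lay within the largest gap between replicates of 1.55. NCA3, of the SUN family of wall-associated glucosidase-like proteins, read 12.31, 9.10 and 9.78 on the high, wild type and no-MSS11 arrays and differed by 2.54. The other 3 SUN genes did not reach 2-fold, UTH1 at 0.37, SIM1 at 0.14 and SUN4 at -0.43. No gene among 22 enzymes of wall glucan and chitin was 2-fold apart. ECM34, a gene of little-known function, differed by 3.03, with 9.25 on the high array, 7.47 in the second wild type and 6.22 on the deletion array.

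None of 11 measured genes linked to the separation of the daughter cell from its mother, enzymes and other proteins, was 2-fold apart. Of these 10 were negative, with a median of -0.42, and AMN1 was positive at 0.17. The chitinase gene CTS1 differed by -0.43, the glucanase gene DSE4 by -0.78 and DSE2, for a secreted daughter-specific protein, by -0.62. The second wild type lay at or below the deletion array for 9 of the 11 and above the high array for 10. In the first wild type 2 of the 11 lay below the deletion array.

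Transcription factors of filamentous growth were represented by 24 measured genes, of which 6 were higher, MSS11 among them, and none was lower. HMS1, a helix-loop-helix factor whose overexpression is known to promote pseudohyphal growth, read 9.95, 8.61 and 6.43 on the high, wild type and deletion arrays, a difference of 3.52 (11.5-fold) with a replicate SD of 0.10. The first wild type gave 8.97, 8.86 and 8.97 for HMS1. YAP6, a basic leucine zipper factor, differed by 1.67 with 10.47 on the high array and 10.22 in the second wild type, so that nearly all of the difference lay between wild type and deletion. MGA1, which resembles heat shock factors, had its step at the other side, with 9.59 on the high array against 8.23 in the wild type and 7.99 in the deletion. TOS8, a homeodomain protein, and NRG1, a repressor of glucose-repressed genes and of FLO11, were higher by 1.45 and 1.05. CIN5, the closest relative of YAP6 and not in this list, differed by 2.27 with signals of 10.62, 9.41 and 8.36. TEC1, NRG2 and PHD1 reached 0.90, 0.87 and 0.81. FLO8, the partner of MSS11, differed by -0.20 and SFL1, a repressor of FLO11, by -0.15. None of 29 genes of the signalling pathways upstream of these factors was 2-fold apart, the largest being MSB2 at 0.47 and TPK2 at -0.46.

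**Figure D2:**
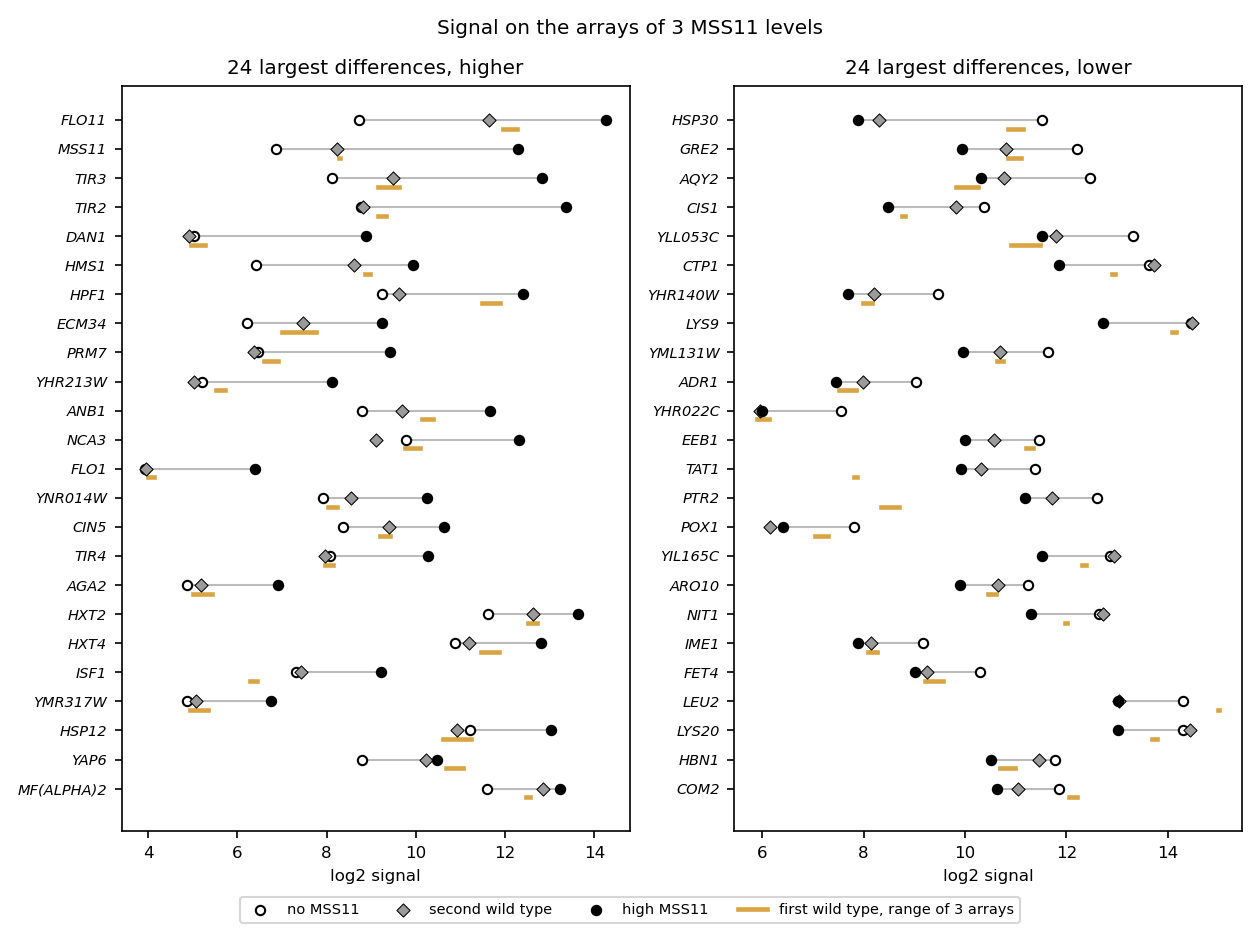
Log2 signal (x axis) of the 24 genes with the largest differences on each side, with 1 array each for no MSS11 (open circles), the second wild type (diamonds) and high MSS11 (filled circles). Orange lines span 3 arrays of the first wild type. FLO11, MSS11, TIR3 and HMS1 have the second wild type well inside the range, and TIR2, DAN1, TIR4 and FLO1 have it at the no-MSS11 end. HSP30 and AQY2 have it near the high-MSS11 end, but the first wild type of HSP30 lies near the no-MSS11 end.

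Mating genes formed a further set of higher members. The Σ1278b label is of α mating type, and the array markers followed it. The α-specific genes MF(ALPHA)1, AFB1 and STE3 read 14.60, 13.53 and 12.06 on the high array and 14.59, 13.36 and 11.84 on the deletion array, while the a-specific STE6 read 7.54 and 7.69. The strain list of the study gives the parent as mating type a, which these levels do not show. Of 5 α-specific genes, MF(ALPHA)2, a pheromone precursor, and SAG1, the α-agglutinin, were higher by 1.64 and 1.13. Both had the wild type close to the high end, SAG1 at 13.33, 13.29 and 12.20 on the high, wild type and deletion arrays. Of 7 a-specific genes, AGA2, the binding subunit of a-agglutinin, read 6.90, 5.18 and 4.87 and differed by 2.03, and STE2, the α-factor receptor, differed by 1.14. On the same probe sets the S288c wild type read 10.47 for AGA2 and 12.14 for STE2. Among 23 genes known to respond to pheromone, 5 were higher and none was lower, with a median of 0.51 and 19 positive. They were PRM6 at 1.54, FIG1 with 6.46 on the high against 4.96 on the deletion array, AGA1 at 1.43, PRM1 at 1.43 and PRM7. On the deletion array AGA2 and FIG1 read just above its background of 4.83, so the size of their differences is uncertain. The probe sets of PRM7 gave 2.95 and 1.11. With the second wild type, AGA1 and PRM1 had their step between deletion and wild type, and FIG1 had it between wild type and the high array. Of 15 genes of meiosis and sporulation 2 were lower and none was higher. IME1, the master regulator of meiotic entry, read 7.89 with high and 9.18 with no MSS11, and SPS100, of the spore wall, 5.70 and 6.82. SPO11 and SPR3 read near background, at 5.08 and 4.93 and at 5.00 and 4.88, whereas others such as IME2, at 8.55 and 8.12, and SPS4, at 8.13 and 7.33, read above it.

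Metabolic genes with higher signal included transporters of hexose. Of 17 measured, 4 were higher, with a list median of -0.09. The high-affinity transporter HXT2 read 13.63, 12.63 and 11.63 on the high, wild type and deletion arrays, and HXT4 read 12.81, 11.18 and 10.87. HXT7 differed by 1.33, with probes shared with its near copy HXT6. HXT15 was below background on the deletion array, and its bound was only 1.14-fold. The low-affinity HXT1 and HXT3 were at -0.38 and -0.15. Of 9 genes known to be induced by lack of oxygen, 4 were higher, at a median of 0.63. ANB1, the oxygen-repressed form of translation factor eIF5A, read 11.66, 9.69 and 8.80, a difference of 2.86. SUT1, a sterol uptake regulator, HEM13, of heme synthesis, and AAC3, an ADP/ATP carrier, differed by 1.10, 1.05 and 1.02, whereas ROX1, the repressor of hypoxic genes, was at -0.05. HEM13 and NRG1 are neighbours on the chromosome. PDR11, a sterol importer, differed by 1.44.

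Of 23 genes of general stress and storage carbohydrate, HSP12 and GPH1 were higher, by 1.81 and 1.30, and the list median was 0.03. HSP12, a small membrane-associated stress protein, read 13.02 with high MSS11, 10.92 in the second wild type and 11.21 with no MSS11. The median hid a common order on the 3 arrays, since 22 of the 23 read lower in the second wild type than in the deletion and 21 read higher on the high array than in the wild type. The list medians were -0.38 for wild type minus deletion and 0.63 for high minus wild type, where those of all genes were -0.0008 and 0.0116. Both counts use the same wild type array. The mean of the first wild type was also below the deletion array for 20 of the 23. YGP1, a secreted protein of nutrient limitation, showed it with 13.13, 11.45 and 12.74 in the order high, wild type and none.

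On the lower side HSP30, a plasma membrane protein induced by heat and ethanol, led with a difference of -3.64 (12.5-fold). It read 7.88 with high MSS11, 8.30 in the second wild type and 11.52 with no MSS11. The first wild type read 10.84 to 11.15 for HSP30, close to the deletion array, and FLO8 overexpression in the second set read 8.73. Its replicate SD was 0.39. No other of the 22 heat shock and chaperone genes was lower by 2-fold, HSP104 at -0.92 coming next, and HSP26 was higher by 1.27. GRE2, a reductase that responds to osmotic stress, read 9.94, 10.80 and 12.21 in the order high, wild type and none, and 10.86 to 11.10 in the first wild type. The aquaporin gene AQY2 read 10.32, 10.78 and 12.46 and differed by -2.14. YLL053C, the adjacent open reading frame that continues AQY2 in some strains, differed by -1.79, so both values may read 1 transcript. AQY1 and FPS1, the water and glycerol channels elsewhere in the genome, were at -0.37 and -0.16.

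Lysine synthesis contained the largest group of lower members in one pathway, with 3 of 9 genes lower, 8 of 9 negative and a median of -0.87. LYS9, which encodes saccharopine dehydrogenase of the last but one step, read 12.72 with high MSS11, 14.48 in the second wild type and 14.46 with no MSS11. LYS20, a homocitrate synthase, read 13.02, 14.43 and 14.29, and LYS1, of the final step, 11.95, 13.31 and 13.11. Replicate arrays scattered little for these genes, the SD of a difference being 0.04, 0.05 and 0.05. The second wild type exceeded the deletion array by only 0.03, 0.14 and 0.20, though for LYS20 and LYS1 this was more than the largest gap between replicates, 0.10 and 0.09. The first wild type averaged 14.12, 13.74 and 12.73, below the deletion array in all 3 as in 7 of the 9 genes. Against it the high array differed by -1.40 for LYS9 and by less than 2-fold for LYS20 and LYS1, at -0.72 and -0.78. CTP1, the mitochondrial citrate carrier, had the same order at 11.85, 13.73 and 13.63. YIL165C and NIT1, neighbouring pieces of a nitrilase gene, differed by -1.35 and -1.33. Their second wild type exceeded the deletion array by 0.08 in both, slightly more than the largest replicate gaps of 0.07 and 0.05. The 27 measured genes of arginine, histidine, tryptophan and other amino acids had no member and a median of 0.00.

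Further lower members included regulators and enzymes of respiratory and aromatic metabolism. ADR1, an activator of genes for growth on ethanol and fatty acids, read 7.45, 7.98 and 9.03 in the order high, wild type and none. POX1, the acyl-CoA oxidase, was lower by 2.63-fold and was the single member among 20 peroxisomal genes, of which 17 were negative with a median of -0.20. ARO10 and ARO9, of aromatic amino acid breakdown, differed by -1.33 and -1.20. TAT1 and PTR2, importers of amino acids and of small peptides, differed by -1.45 and -1.41. The first wild type stood apart for both, TAT1 averaging 7.83 where all 3 second-set arrays were at 9.92 or more. CIS1 was lower by 1.90 on the log2 scale, with 8.48, 9.83 and 10.38.

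Large sets that differed little set the scale for these differences. All 27 genes of ribosome biogenesis and RNA polymerase I were positive, between 0.05 and 0.46 with a median of 0.30, and none was a member, where 2864 of all 5449 genes were positive. The 128 cytosolic ribosomal protein genes ranged from -0.12 to 0.18 with a median of 0.04. All 9 histone genes were negative by 0.07 to 0.14, and the 34 genes of the respiratory chain had a median of 0.13. CLN1, a cyclin of the G1 phase, came nearest to the limit among 16 cell cycle genes at 0.93.

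**Figure D3:**
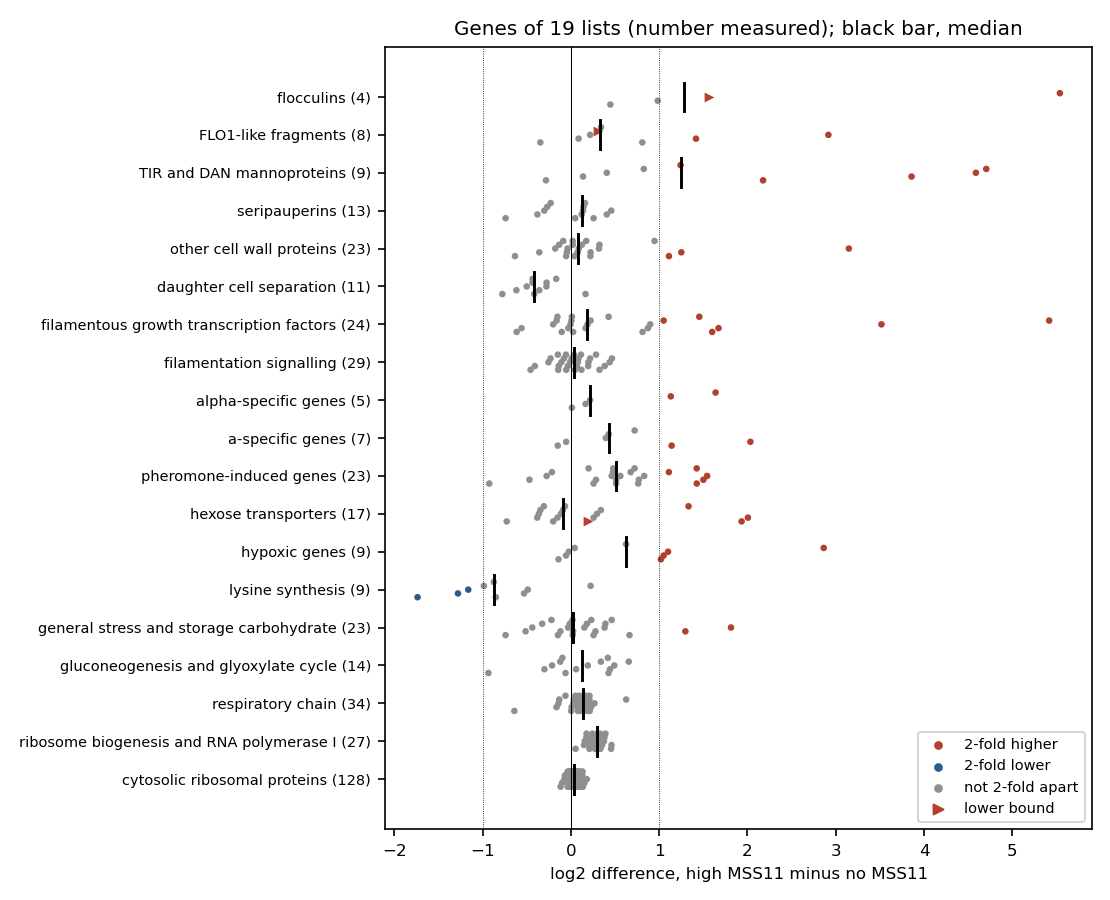
Log2 difference between the high-MSS11 and the no-MSS11 array (x axis) for the genes of 19 lists, with the number measured in parentheses. Each point is a gene, triangles are lower bounds of genes below background on the deletion array, black bars are medians and dotted lines mark 2-fold. The flocculins and the TIR and DAN mannoproteins have medians of 1.28 and 1.24, lysine synthesis has -0.87, and the ribosomal protein genes stay between -0.12 and 0.18.

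The second wild type divided the range of MSS11 into a lower step, from none to the chromosomal gene, and an upper step, from the chromosomal gene to the plasmid. It lay between the 2 ends for 51 of the 64 higher and 28 of the 40 lower members, where 50.5% of all probe sets had it between. A large difference makes such a position likely by itself, so this count is a description. On a scale from 0 at the deletion array to 1 at the high array, the wild type stood at a median of 0.24 for the higher members and 0.62 for the lower ones. Of the higher members 33 had it below 0.25 and 8 above 0.75, and of the lower members 8 and 12. With the mean of the first wild type the medians were 0.24 and 0.50.

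Counted in 2-fold steps, 35 of the 64 higher members had only the upper step, 7 only the lower step, 6 both and 16 neither. The 35 include HXT15 and YAL064W, at 3.99 and 3.85 in the second wild type, below its background of 4.88. With 5.02 and 5.13 on the high array, their upper step was less than 2-fold above that background. These counts and the shares below keep all 64. The 6 with both were MSS11, FLO11, TIR3, HMS1, ECM34 and CIN5. The 7 with only the lower step were AGA1, COS8, MF(ALPHA)2, PRM1, SAG1, YAP6 and YGR109W-A, an open reading frame of a Ty retrotransposon whose probes are shared between copies. COS8 varied by up to 2.16 between replicate arrays. Among the 40 lower members 15 had only the lower step, 9 only the upper step, none both and 16 neither. Those with only the lower step were ADR1, AQY2, FET4, GRE2, HSP30, IME1, LEU2, POX1, TAT1, TDA6, YDR222W, YHR022C, YHR140W, YLL053C and YRO2. The 9 with only the upper step were CIS1, CTP1, LYS1, LYS20, LYS9, NIT1, RTC2, YIL165C and YML003W. With the first wild type in its place, an alternative added after the data were seen, 31 higher members had only the upper step, 9 only the lower step and 6 both, with ANB1 for CIN5 among the 6. For the lower members the balance turned, with 9 only in the lower step, 12 only in the upper step and GRE2 in both. HSP30, TDA6, YDR222W and LEU2 changed from the lower to the upper step. The larger number of upper steps was thus found with both wild types for the higher members, and the order for the lower members rested on the wild type used.

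**Figure D4:**
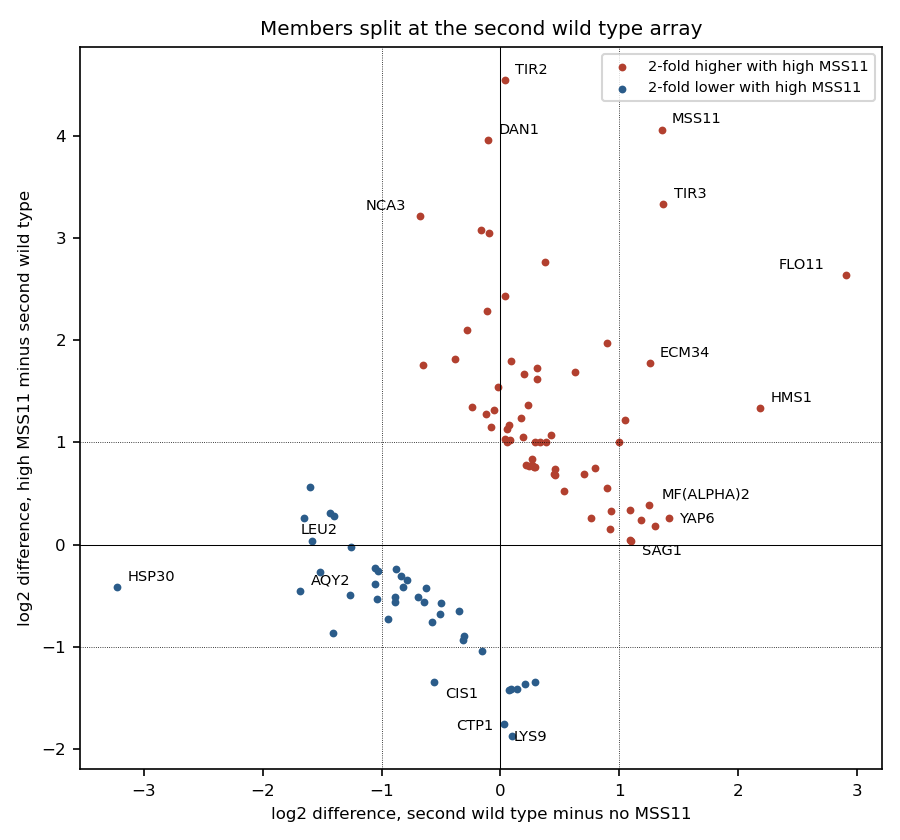
The 104 members by their log2 difference between the second wild type and no MSS11 (x axis) and between high MSS11 and the second wild type (y axis). Dotted lines mark 2-fold and both axes use the same wild type array. TIR2, DAN1 and NCA3 lie along the vertical axis, HSP30 and AQY2 far to the left near the horizontal axis, and FLO11, TIR3 and HMS1 beyond 2-fold on both.

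The members were then read on arrays that the comparison had not used. In S288c, extra MSS11 against the wild type, with 1 array each, gave 28 of the 64 higher members at least 2-fold higher, MSS11 itself included, or 43.8% where 1.24% of all probe sets were higher. Only 2 of the 40 lower members, LYS20 and YGR035C, were 2-fold lower (5.0%, beside 0.437% of all). The 28 made up 41.2% of the 68 probe sets higher in S288c. FLO11 differed there by 5.06, from 8.03 to 13.10, and FLO1 by 5.89, from 6.88 to 12.77. TIR2, TIR3, DAN1, TIR1 and TIR4 differed by 3.68, 3.16, 3.34, 3.07 and 2.12. HMS1, with a difference of 3.52 in Σ1278b, differed by 0.52 in S288c, where no array without MSS11 was used. LYS9 was at -0.03 and HSP30 at 0.81. All 5 TIR and DAN members and both flocculin members were thus 2-fold higher in both strains. AGA2, STE2 and PRM6 were 2-fold lower in S288c with extra MSS11, at -1.55, -1.43 and -1.15. As given above, AGA2 and STE2 started from much higher levels in S288c. The strain list of the study gives the S288c parent as mating type α. Yet the S288c wild type array read high for these a-specific genes as well as for the α-specific SAG1, at 13.52, and MF(ALPHA)2, at 13.23. What lay behind these levels was not tested, which limits the reading of the a-specific genes in S288c. Of the 7 a-specific genes 6 were 2-fold lower in S288c with extra MSS11 (beside 0.437% of all probe sets), with a list median of -1.46.

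Overexpression of FLO8 in Σ1278b against the second wild type, also 1 array each and none of them in the comparison, gave 16 of the 64 higher members 2-fold higher (25.0%, beside 0.473% of all probe sets) and 11 of the 40 lower members 2-fold lower (27.5%, beside 0.346%). These 16 were 61.5% of the 26 probe sets higher with extra FLO8, and the 11 were 57.9% of the 19 lower ones. FLO11, TIR3, TIR2, ANB1 and NCA3 differed by 2.56, 1.87, 1.55, 1.54 and 1.51. The 11 lower ones included CTP1 at -1.78, LYS9 at -1.48, NIT1 at -1.44, CIS1 at -1.33, LYS20 at -1.25 and LYS1 at -1.21. These calls rested on the second wild type array. Against the mean of the first wild type, which differs in its plasmid, only LYS9 and GRE2 of the 11 were still 2-fold lower. LYS20 read 13.18 with extra FLO8, 14.43 in the second wild type and 13.74 in the first. LYS1 read 12.10, 13.31 and 12.73 in the same order. THI4, at 9.82 with extra FLO8, was above its first wild type mean of 9.44. FLO1 was at 0.02 and read below background in the FLO8 array at 3.98, and YHR213W was at 0.33. HSP30 and AQY2, lower with high MSS11, were at 0.43 and 0.32.

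**Figure D5:**
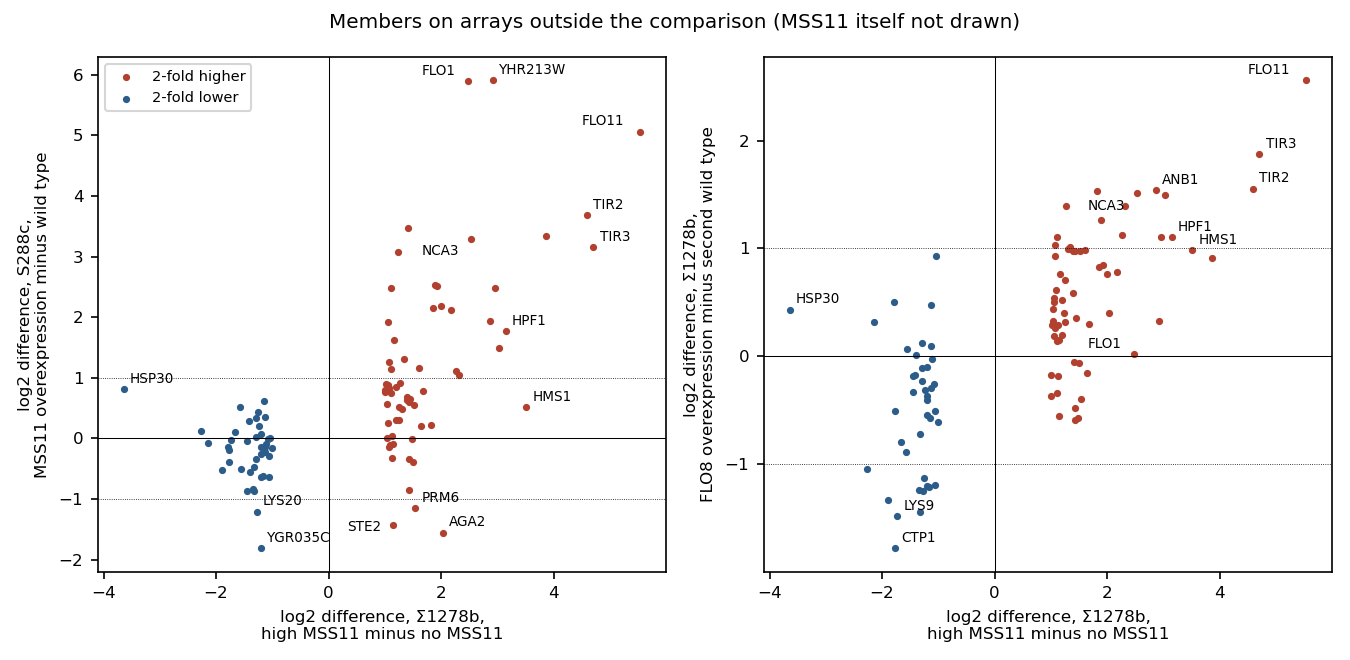
Members by their log2 difference between high and no MSS11 in Σ1278b (x axes) against that between MSS11 overexpression and wild type in S288c (left, y axis) and between FLO8 overexpression and the second wild type in Σ1278b (right, y axis), 1 array on each side. Dotted lines mark 2-fold. FLO11, TIR2 and TIR3 are high in both panels, FLO1 only in S288c, and LYS9 and CTP1 are low with FLO8.

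Overexpression of FLO11 from the PGK1 promoter, the one replicated comparison, was tested with limma over all probe sets (3 arrays each, Benjamini-Hochberg adjusted p below 0.05). Of the 64 higher members 25 rose (3.8% of all probe sets rose) and 3 fell, and of the 40 lower members 7 fell (2.55% of all fell) and 2 rose. The 25 include FLO11 itself, which was manipulated. Leaving out 1 array brought the 25 down to 12 without wild type replicate 2, to 15 without wild type replicate 1 and to between 18 and 22 without any other. The 7 became 4 without wild type replicate 2 or FLO11 replicate 3, and 5 or 6 otherwise. NCA3 rose by 1.68 ± 0.11 (SE, adjusted p = 0.000599), HSP12 by 2.11 ± 0.17 (adjusted p = 0.00116) and HMS1 by 0.51 ± 0.06 (adjusted p = 0.00457). AQY2 fell by 1.37 with an SE of 0.12 (adjusted p = 0.00162). HPF1, higher with high MSS11, fell by 2.01 with an SE of 0.10 (adjusted p = 0.000165). TIR3 and TIR2 did not pass the test, at -0.25 and -0.13 (adjusted p = 0.265 and 0.347), nor did FLO1 at 0.01. The TIR genes and FLO1 were thus 2-fold higher beside high MSS11 in both strains and were not among the genes that rose with extra FLO11.

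The limit of 2-fold in S288c and with extra FLO8 and that of the adjusted p with extra FLO11 were all passed in the same direction by 7 higher members and by none of the lower ones. The 7 were FLO11, NCA3, CIN5, HXT7, ISF1, PIR3 and YNR014W. ISF1, a gene of little-known mitochondrial function, read 9.21, 7.42 and 7.32 on the high, wild type and deletion arrays. In none of the 3 did 21 higher and 22 lower members pass in their own direction, among them YAP6, TOS8, AGA1 and SAG1 on the higher and HSP30, ADR1 and IME1 on the lower side. Over all probe sets at most 3.8% were higher and 2.55% lower past any one of these limits, so most passed none. The share of all probe sets that passed all 3 was not counted, and these counts are a description. Not passing leaves the direction open, as for IME1, which was negative in all 3.

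Position along the chromosomes gave a last description. The 10 outermost annotated protein-coding genes of each chromosome end, where measured, made up 235 of 5446 measured genes (4.32%). They held 7 of 63 higher genes (11.1%) and 5 of 39 lower genes (12.8%). The 7 were CHA1, COS8, ECM34, FLO1, HXT15, YAL064W and YMR317W, and the 5 were FET4, LYS1, NIT1, YIL165C and YML131W. HXT15 and YAL064W had bounds of only 1.14- and 1.24-fold, and COS8 lay within its largest replicate gap. Without these the share among higher genes would be nearer to that of all genes. NIT1 and YIL165C are pieces of 1 nitrilase gene. FLO11 itself lay 24 genes from its chromosome end, and TIR2 and TIR4 farther inside. Among the members 8 pairs of genes were direct neighbours. Both genes of a pair had the same sign in 6, namely NRG1 and HEM13, YIL165C and NIT1, HOP2 and AGA2, YHR213W and YHR213W-A, YLL053C and AQY2, and TIR4 and TIR2. HOP2 was below background on the deletion array. The pairs FRE7 with GRE2 and YPR159C-A with GPH1 were opposite in direction.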

How the data were processed

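Values were deposited as linear intensity from Affymetrix Yeast Genome 2.0 arrays, which the authors had background corrected and normalized together with RMA. RMA's version and a genome build were not given in the sources used here. For analysis, the log2 of each intensity was taken; the design had assumed log2 values. Of 10928 probe sets, 5498 (5449 genes) were listed for 1 yeast gene, and 97.4 to 98.5% of these lay above the background of 4.77 to 4.90. The second set had 1 array per group, so differences carry no p-value. The number of arrays limits precision. FLO11 overexpression was tested with limma 3.58.1 in R 4.3.3 (two-sided, checked on simulated data). Where a gene had several probe sets, its brightest stood for it in the 45 lists. Named genes were MSS11, FLO11, FLO8, neighbours, markers, the 20 largest differences each way, up to 4 genes per list, whole wall families and genes at the limit. Other genes were named after their values were seen. Members, lists and alternatives were chosen with earlier results of these data known, and some lists hold genes the study picked on these arrays. Alternatives covered threshold, background filter, normalization, probe set choice, wild type used, replicate block and arrays left out.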

Additional observations from a re-analysis of the deposited data

Results flagged for a closer look

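Outside the 5498 probe sets, 3683 had no listed gene, and 7 of them were at least 2-fold apart between high and no MSS11, 5 higher and 2 lower (0.19%). Pairs of replicate arrays had 0 to 1 such probe sets. The largest differences were 2.69 and -1.42. These probe sets could not be named here.

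AGA2, PRM6 and STE2 went in opposite directions in the 2 strains. AGA2 and STE2 are a-specific genes, of which 6 of 7 were 2-fold lower in S288c with extra MSS11. At -1.55, -1.15 and -1.43 they were 2-fold lower in S288c with extra MSS11 and 2-fold higher in Σ1278b with high against no MSS11. The S288c parent is listed as mating type α, but its wild type array read high for a-specific genes such as AGA2 and STE2 too. With 1 array on each side, and with a deletion in one comparison and a wild type in the other, the difference between strains was not tested.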

How the results depend on the processing

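At a log2 limit of 1.5 the comparison held 39 probe sets (28 higher, 11 lower), and at 1.5-fold 274, of which 143 were higher and 131 lower (52.2% higher, against 61.5% at 2-fold). Of members also apart the same way, S288c gave 30 at 2-fold and 49 at 1.5-fold, and extra FLO8 gave 27 and 45. Filters, normalizations and probe set choices gave counts of 99 to 104 in place of 104, and the 209 named probe sets kept their sign under both normalizations. Replicate pairs with 1 array left out gave 102 to 103 in place of 102.

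For FLO11 overexpression, 349 probe sets passed. Replicate numbers did not pair the arrays, since deviations of same-numbered arrays correlated at 0.03, -0.12 and -0.27. With the replicate block 208 passed (148 higher, 60 lower), and with 1 array left out 96 (without wild type replicate 2) to 318, all arrays but FLO11 replicate 1 moving the count by over 1.5 times. For lower members with only the lower step, the first wild type gave 9 in place of 15. The cause was not tested. Probe sets below background on 1 array, such as FLO1, HXT15, HOP2 and YAL064W, had only a bound there. DAN1, AGA2 and FIG1 lay just above background on the deletion array.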
